A study of Homo sapiens with 9 samples.

Results

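Smooth muscle contractile regulators are described here as 8 genes, TAGLN, CNN1, CALD1, MYLK, SYNM, KCNMB1, MYL4 and MYL7. They were chosen by symbol, and every probe that the array annotation gives to 1 of these symbols among the deposited values was taken. That gave 13 of the 20127 probes in the authors' table: 3 each for TAGLN and CALD1, 2 for MYLK and 1 for each of the other genes. Levels were measured on Illumina human expression BeadChips, on which bead-bound oligonucleotides capture labelled RNA, in total RNA of the H9 human embryonic stem cell line and of cells grown from it. There are 3 groups of 3 arrays. The first is undifferentiated human embryonic stem cells (hESC), kept on mouse feeder fibroblasts with knockout serum replacement and 4 ng/ml bFGF. The second is embryoid bodies, floating aggregates of H9 cells freed from the feeders and grown for 6 days with 40 nM BMP4. The third is perivascular progenitors, cells of such embryoid bodies that were dissociated on day 6, adhered to collagen in the endothelial growth medium EGM2-MV and were passaged. All 3 groups come from 1 cell line, feeder cells and bFGF are stated for hESC alone, and the labels do not say whether the arrays of a group are separate cultures. P-values therefore measure the spread between arrays, which may be technical.

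Smooth muscle contracts when calcium-bound calmodulin activates myosin light chain kinase, the product of MYLK, which phosphorylates the regulatory light chain of myosin II and lets it pull on actin. Calponin (CNN1) and caldesmon (CALD1) bind actin and restrain the myosin ATPase, and transgelin (TAGLN, also SM22 alpha) is a small calponin relative that bundles actin. Synemin (SYNM) is an intermediate filament protein that joins desmin or vimentin filaments to adhesion sites, and KCNMB1 codes for the beta 1 subunit that raises the calcium sensitivity of the BK potassium channel, which relaxes vessel walls. MYL4 and MYL7 code for the essential and the regulatory myosin light chain of the heart's atria, and MYL4 is also made in embryonic muscle. Many of these genes are known targets of serum response factor, which binds the CArG box with its coactivators of the myocardin family.

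CALD1 and MYL7 lie on the same chromosome and the other genes each on another. On the human assembly GRCh38.p14, RefSeq places TAGLN at chr11:117199294-117207465, CNN1 at chr19:11538851-11550323 and CALD1 at chr7:134711499-134970729. MYLK lies at chr3:123610049-123884332, SYNM at chr15:99105080-99141767 and KCNMB1 at chr5:170374671-170389367. MYL4 lies at chr17:47189433-47227650 and MYL7 at chr7:44138864-44141332. Start windows were found in the RefSeq promoter table for 6 of the 8 genes, 9 windows in all, since CALD1 has 4 starts. TAGLN and MYL4 had no window there, so their promoters were not searched. The 250 bases upstream of each start were searched on both strands for the CArG box (CC, then 6 bases that are A or T, then GG) and for the E-box CANNTG. A CArG box was present in the windows of MYLK and MYL7 and in none of the other 7 windows, against 1.16% of all 35116 promoter windows of this length. An E-box was present in the windows of CNN1, MYLK, SYNM, KCNMB1 and MYL7 and in none of the 4 of CALD1, against 61.8% of all windows, and no E-box overlapped a CArG box. The following 4 windows are shown because MYLK and SYNM were the members with the largest rises, CNN1 had the largest fall between embryoid bodies and progenitors, and MYL7 shares the CArG box with MYLK while its level fell. They run 5′ to 3′ on the gene's strand and end at the base before the start, with the CArG box in capitals.
MYLK, chr3:123620549-123620798, minus strand: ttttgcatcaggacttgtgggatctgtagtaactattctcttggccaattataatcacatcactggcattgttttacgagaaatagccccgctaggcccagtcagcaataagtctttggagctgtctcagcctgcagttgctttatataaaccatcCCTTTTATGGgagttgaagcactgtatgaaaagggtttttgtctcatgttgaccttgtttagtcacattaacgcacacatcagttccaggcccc
MYL7, chr7:44141333-44141582, minus strand: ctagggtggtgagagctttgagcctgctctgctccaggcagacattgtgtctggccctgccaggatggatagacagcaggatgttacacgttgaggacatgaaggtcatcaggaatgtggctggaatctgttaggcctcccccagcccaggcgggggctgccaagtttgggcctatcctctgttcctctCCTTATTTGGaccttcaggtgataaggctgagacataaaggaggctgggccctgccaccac
SYNM, chr15:99104830-99105079, plus strand: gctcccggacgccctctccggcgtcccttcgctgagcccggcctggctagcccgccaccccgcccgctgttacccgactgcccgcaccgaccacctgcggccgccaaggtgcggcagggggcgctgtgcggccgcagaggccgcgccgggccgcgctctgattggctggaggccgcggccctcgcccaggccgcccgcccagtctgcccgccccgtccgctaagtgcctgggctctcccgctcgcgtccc
CNN1, chr19:11538601-11538850, plus strand: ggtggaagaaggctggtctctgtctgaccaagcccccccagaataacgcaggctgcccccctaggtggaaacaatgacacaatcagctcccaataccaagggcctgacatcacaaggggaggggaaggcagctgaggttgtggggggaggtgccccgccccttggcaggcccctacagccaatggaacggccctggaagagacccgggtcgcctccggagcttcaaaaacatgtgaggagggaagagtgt

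The CArG box begins 94 bases upstream of the start in MYLK and 61 bases upstream in MYL7. The MYLK start of the table lies inside the gene, 263.8 kb from its 5′ end and 10.5 kb from its 3′ end. No other MYLK start was in the table, so the region upstream of the gene's 5′ end was not searched. Besides the kinase, MYLK is known to make telokin, a short smooth muscle protein, from an internal start. The windows differ in base composition, with 78.8% G and C in SYNM, 60.8% in CNN1, 56.4% in MYL7 and 43.2% in MYLK. A match is a description of these letters and not evidence of binding.

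Values are log2 intensities after background correction and quantile normalization, with SD over the 3 arrays of a group. A probe was called detected on an array if its deposited detection p-value was under 0.05, and it was tested if detected on at least 3 of the 9 arrays, which kept 21683 probes and all 13 of the members. The words rose, fell and changed are kept for probes with an adjusted p under 0.05 in limma's moderated test and a change of at least 2-fold. Between 17964 and 21172 probes were detected per array. Of 10 pluripotency markers 9 were detected on all hESC arrays, and 10 of 10 fell in progenitors against hESC. In embryoid bodies 10 of 10 were detected on all arrays, and 0 rose and 0 fell against hESC. Their summed level was 97359 to 98610 in embryoid bodies, 91762 to 108367 in hESC and 1790 to 1959 in progenitors. Of 8 tested pericyte markers 4 rose in progenitors against hESC, PDGFRB, CD248, ANGPT1 and ANPEP, and 2 fell (NOTCH3 and ALPL). Over all named genes 14.7% rose and 19% fell in that comparison. By limma 4 were higher and 4 lower at an unadjusted p under 0.05, against 32% and 38.7% of all named genes. The summed level of the pericyte markers was 10693, 15493 and 10912 on progenitors 1 to 3. It was 11431 to 12669 in hESC and 9915 to 10366 in embryoid bodies. RGS5, a further pericyte marker, was at 7.06 in hESC and 6.25 in progenitors, and KCNJ8 was detected on 1 of 3 progenitor arrays. As these are bulk samples, fewer cells of a type and less RNA per cell cannot be told apart.

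Before the results, 2 arrays must be named that stand apart from the rest of their groups. The other arrays of each group were nearly identical. Counting genes at least 2-fold apart, hESC 1 and 2 differed at 2, embryoid bodies at 6 to 43 a pair, and progenitors 1 and 3 at 29, against 425 to 657 for pairs with hESC 3 or progenitor 2. Whether such arrays are repeats of 1 culture is not stated, and in that case n = 3 would overstate the number of independent samples. Of 21683 probes, 629 (2.9%) were at least 2-fold away on hESC 3 from the mean of hESC 1 and 2, and 957 (4.41%) on progenitor 2 from the mean of progenitors 1 and 3. Among the 13 probes 3 were that far away on hESC 3 and 0 on progenitor 2. On hESC 3 most probes of the actin-binding genes were higher, by 1.24 (log2) for 1 TAGLN probe, 0.77 for another, 1.23 for CNN1, and 0.66 and 0.57 for 2 CALD1 probes, while the third CALD1 probe differed by −0.08. The atrial light chains were lower there, by −1.21 for MYL7 and −0.83 for MYL4, while SYNM differed by 0.0007 and the MYLK probes by −0.12 and 0.06. The summed level of 10 fibroblast markers was 9656 on hESC 3, against 6921 and 7222 on hESC 1 and 2, and that of 3 skeletal muscle markers 19956 against 9799 and 9898. These 2 lists were not alone. The sum of pluripotency markers was 108367 on hESC 3, against 91762 and 92355 on hESC 1 and 2, and that of cardiac markers 7599 against 5945 and 6243. That of endothelial markers was 2135 against 1175 and 1208, while that of pericyte markers was lower, 11431 against 12561 and 12669. The part of any of these in the differences was not tested. On progenitor 2 the largest deviations were 0.63 for SYNM and 0.47 for 1 CALD1 probe.

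**Figure D1:**
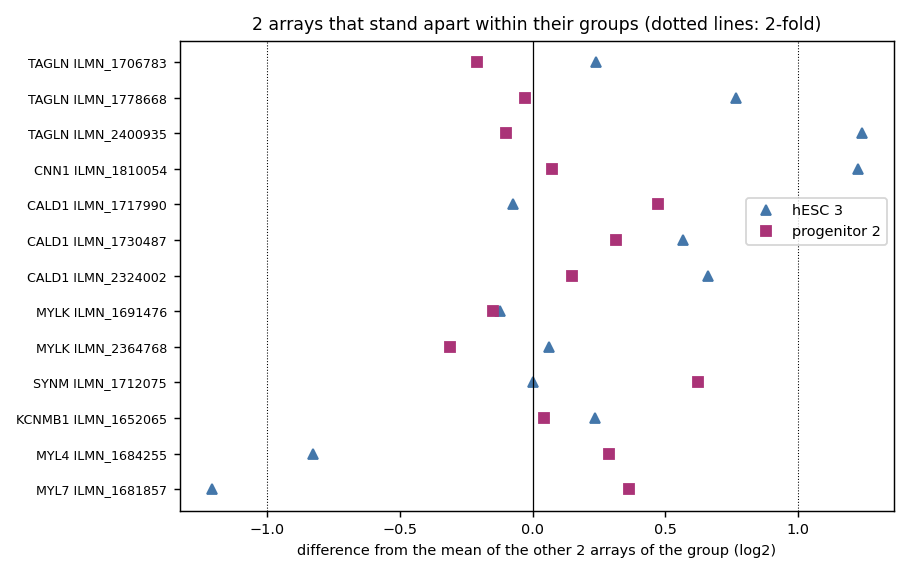
Difference of hESC 3 (triangles) from the mean of hESC 1 and 2, and of progenitor 2 (squares) from the mean of progenitors 1 and 3, for each of the 13 probes, in log2 units. On hESC 3, CNN1 and 1 TAGLN probe lie above the 2-fold line (1.23 and 1.24) and MYL7 below it (−1.21), and no probe passes it on progenitor 2.

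The members did not move as 1 group. Against hESC, progenitors had higher CALD1, MYLK and SYNM, lower CNN1, MYL4 and MYL7, and TAGLN and KCNMB1 that stayed under a 2-fold change, each gene taken by its brightest probe. By gene 3 of 8 rose and 3 fell, where 33.7% of all 11991 named genes were called (14.7% higher and 19% lower). By probe, 5 of 13 rose and 3 fell, where 29.5% of all tested probes were called, 14.1% higher and 15.4% lower. The arrays of the 2 groups did not overlap for 10 of 13 probes, against 65.4% of all probes. The median change of the 13 probes was 0.39, against 0.01 over all probes. That of the 8 genes had the other sign, −0.26, against −0.07 over all named genes, since genes with several probes count once there. Against embryoid bodies, 7 of 13 probes rose and 1 fell in progenitors, where 29.9% of all tested probes were called, 14.7% higher and 15.2% lower, with a median of 1.36 against −0.03. By gene 4 of 8 rose and 1 fell (34.2% of named genes called), and 12 of 13 probes did not overlap (67.4% of all probes). The median of the 8 genes was 0.47 here, against −0.08 over all named genes. In embryoid bodies against hESC 0 probes rose and 3 fell by limma (9 of 13 were lower at an unadjusted p under 0.05, against 15.9% of all tested probes, and 8 passed an adjusted p under 0.05 at any size, against 17.2%). At the full threshold 2.72% of all tested probes were called, 1.28% higher and 1.43% lower. The median change of the 13 probes was −0.59, against 0.00 over all probes, and that of the 8 genes −0.66, against −0.01 over all named genes. By gene 1 of 8 fell, MYL7 (3.08% of named genes called, 1.5% higher and 1.58% lower), and 10 of 13 probes did not overlap (43.5% of all probes). Each pair of comparisons shares the arrays of 1 group, so their values are not independent.

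**Figure D2:**
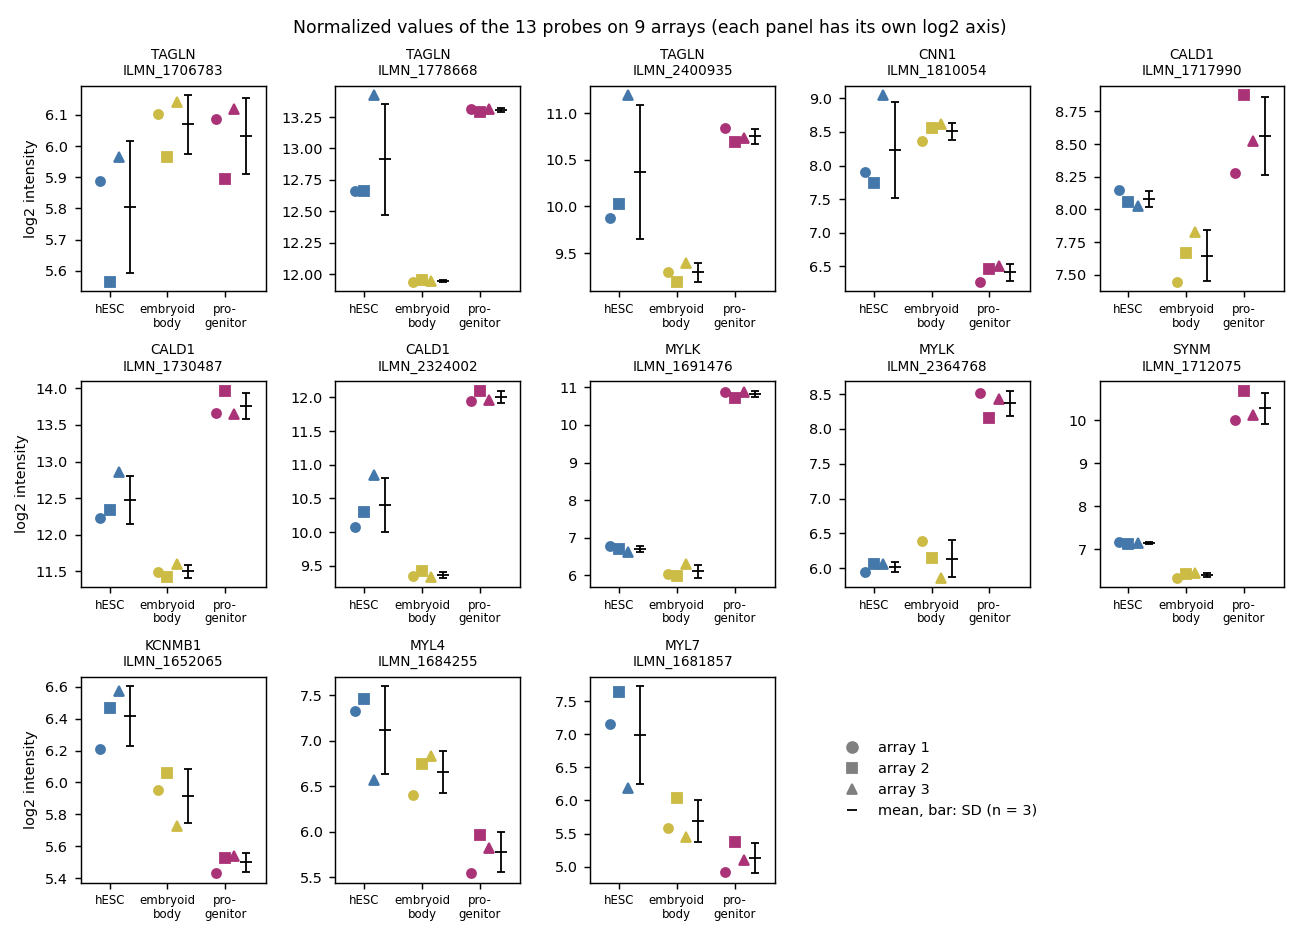
Normalized log2 intensity of each of the 13 probes on the 9 arrays. Symbols mark the array number, which was not taken to pair arrays across groups, and black bars give the mean and SD of 3 arrays. The panels of the brighter MYLK probe and of SYNM show progenitors far above the other groups (10.83 and 10.28 on average), and the CNN1 panel shows them below (6.41). hESC 3 lies above the other hESC arrays in the panels of CNN1 and of TAGLN probes ILMN_1778668 and ILMN_2400935. It lies below them in the MYL4 and MYL7 panels.

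MYLK had the largest rise among the members. Its brighter probe, ILMN_1691476, read 6.77, 6.71 and 6.62 on hESC 1 to 3, 6.04, 5.99 and 6.31 on embryoid bodies 1 to 3, and 10.88, 10.73 and 10.88 on progenitors 1 to 3. The progenitor arrays were far above all others, and the embryoid body arrays lay below every hESC array. The log2 fold change of progenitors was 4.13 against hESC (SE 0.11, 17.5-fold, n = 3 each, limma adjusted p = 3.87e-09) and 4.72 against embryoid bodies (SE 0.11, adjusted p = 1.55e-09), which placed it at rank 410 and rank 250 of 21683 probes by size of change. Embryoid bodies differed from hESC by −0.59 (adjusted p = 0.00924), under 2-fold.

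The other MYLK probe, ILMN_2364768, is annotated to another transcript of the gene. It read 5.94, 6.06 and 6.07 in hESC, 6.40, 6.15 and 5.87 in embryoid bodies, where it was detected on 2 of 3 arrays, and 8.51, 8.16 and 8.43 in progenitors. Both probes were thus highest on the 3 progenitor arrays. It rose by 2.34 against hESC (SE 0.15, adjusted p = 9.5e-07) and by 2.23 against embryoid bodies (adjusted p = 1.27e-06). The first probe's change exceeded the second's by 1.79 and 2.49 in these comparisons, and its arrays did not overlap in this difference. In an exact two-sided permutation test each difference reached p = 0.1, the smallest that 3 arrays against 3 allow (0.14 after Benjamini-Hochberg adjustment over 21 such comparisons of probe pairs). Values of the dimmer probe in hESC and embryoid bodies were close to the lowest detected values (5.83 to 6.03 on those arrays). Whether either MYLK probe reads transcripts of the kinase or of telokin was not examined.

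SYNM, the synemin gene, rose as well. Its probe read 7.16, 7.12 and 7.14 in hESC, 6.33, 6.43 and 6.44 in embryoid bodies, and 10.01, 10.70 and 10.13 in progenitors. The 3 groups did not overlap, and embryoid bodies were lowest. The change of progenitors was 3.14 against hESC (SE 0.16, 8.82-fold, adjusted p = 2.29e-07) and 3.88 against embryoid bodies (SE 0.16, adjusted p = 5.17e-08), and 2.93 and 3.67 without progenitor 2. Embryoid bodies differed from hESC by −0.74 (adjusted p = 0.0156), under 2-fold. Among 4 tested partners of synemin, VIM, the vimentin gene, fell in embryoid bodies (−1.28, adjusted p = 0.000776) and rose in progenitors against hESC (1.47, adjusted p = 1.39e-05). DTNA, which codes for the synemin-binding protein alpha-dystrobrevin, fell in progenitors (−1.87, adjusted p = 1.2e-05), and NES (−0.95) and DMD (0.42) stayed under 2-fold. Desmin (DES) was not analysed here.

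CALD1, the caldesmon gene, had 3 probes that moved in the same order but by different sizes. ILMN_1730487, the brightest, read 12.23, 12.34 and 12.85 in hESC, 11.49, 11.42 and 11.60 in embryoid bodies, and 13.67, 13.97 and 13.64 in progenitors. ILMN_2324002 read 10.08, 10.30 and 10.85 in hESC, 9.35, 9.42 and 9.34 in embryoid bodies, and 11.94, 12.10 and 11.97 in progenitors. On both probes embryoid bodies were lowest, progenitors highest, and the groups did not overlap. The brightest probe rose by 1.29 against hESC (SE 0.17, adjusted p = 0.000121) and by 2.26 against embryoid bodies (adjusted p = 2.57e-06), and ILMN_2324002 by 1.60 (SE 0.18, adjusted p = 3.78e-05) and 2.63 (adjusted p = 1.21e-06). In embryoid bodies against hESC they moved by −0.97 and −1.04 (adjusted p = 0.00575 and 0.00513), so that the first missed the 2-fold threshold and the second passed it. Without hESC 3 these values were −0.78 and −0.82, and neither was a call.

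The third CALD1 probe, ILMN_1717990, read 8.15, 8.06 and 8.03 in hESC, 7.45, 7.67 and 7.83 in embryoid bodies, and 8.28, 8.87 and 8.52 in progenitors. Its arrays kept the same order of groups without overlap. Its changes were smaller and under 2-fold, −0.43 in embryoid bodies against hESC (adjusted p = 0.097), 0.48 in progenitors against hESC (adjusted p = 0.0261) and 0.91 against embryoid bodies (adjusted p = 0.000781). Its change in progenitors against embryoid bodies was 1.35 and 1.72 smaller than that of the other 2 probes (exact permutation p = 0.1 each, the smallest possible). The 3 probes are annotated to 3 transcripts of CALD1, a gene known for long and short splice forms of smooth muscle and other cells. Which forms each probe reads was not examined.

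TAGLN, long used as an early marker of smooth muscle differentiation, was lower in embryoid bodies than in the other groups. Its brightest probe, ILMN_1778668, read 12.66, 12.66 and 13.43 in hESC, 11.94, 11.95 and 11.94 in embryoid bodies, and 13.32, 13.29 and 13.31 in progenitors. Progenitors lay above hESC 1 and 2 and below hESC 3. In progenitors it rose by 1.36 against embryoid bodies (SE 0.19, adjusted p = 0.00016), while the difference from hESC was 0.39 (95% interval −0.03 to 0.81, adjusted p = 0.0989). Without hESC 3 that difference was 0.65 (adjusted p = 0.000251), still under 2-fold. Embryoid bodies differed from hESC by −0.97 (adjusted p = 0.00895), just under 2-fold, and by −0.72 without hESC 3.

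A second TAGLN probe annotated to the same transcript, ILMN_2400935, read 9.88, 10.03 and 11.19 in hESC, 9.30, 9.19 and 9.39 in embryoid bodies, and 10.84, 10.69 and 10.73 in progenitors. Embryoid bodies were again lowest and hESC 3 again the highest of all 9 arrays. It rose by 1.46 in progenitors against embryoid bodies (SE 0.29, adjusted p = 0.0017) and fell by 1.07 in embryoid bodies against hESC (SE 0.29, adjusted p = 0.0346). The rise was no call with near-identical arrays averaged (1.44, adjusted p = 0.0912). The fall was −0.66 and no call without hESC 3, and its call was lost as well without any 1 embryoid body array (adjusted p 0.0808 to 0.106) or without progenitor 3 (adjusted p = 0.0518). The third probe, ILMN_1706783, is annotated to another transcript and was detected on 2 of 3 arrays in every group, with values from 5.56 to 6.14. It did not pass in any comparison (changes of 0.26, 0.23 and −0.04), at levels near background.

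CNN1, the calponin gene, a marker of differentiated smooth muscle, went the other way. Its probe read 7.90, 7.74 and 9.05 in hESC, 8.37, 8.55 and 8.61 in embryoid bodies, and 6.27, 6.46 and 6.51 in progenitors. The progenitor arrays were the lowest 3, and embryoid bodies lay within the range of hESC. CNN1 fell in progenitors by 1.82 on the log2 scale against hESC (SE 0.29, 3.52-fold, adjusted p = 0.000458) and by 2.10 against embryoid bodies (SE 0.29, adjusted p = 0.000175), and the fall from hESC was −1.41 without hESC 3. Embryoid bodies differed from hESC by 0.28 (95% interval −0.38 to 0.94, adjusted p = 0.564), by 0.69 without hESC 3 (adjusted p = 0.00858) and by −0.074 under median scaling. In progenitors CNN1 was still detected on 3 of 3 arrays.

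The relatives of calponin and transgelin divided likewise. Of 4 tested, TAGLN2, a transgelin found in most cells, rose in progenitors against hESC (1.74, adjusted p = 8.26e-07), and TAGLN3, a neuronal transgelin, fell (−2.35, adjusted p = 0.000261). CNN2 (0.57) and CNN3 (0.49), the calponins of non-muscle cells, stayed under 2-fold. TAGLN2, CNN2 and CNN3, but not TAGLN3, were also part of the wider contractile list. With 4 genes, 1 riser and 1 faller are too few to set against the share of all genes.

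KCNMB1 was dim throughout. It read 6.21, 6.47 and 6.57 in hESC, 5.95, 6.06 and 5.73 in embryoid bodies, and 5.43, 5.53 and 5.54 in progenitors, and was detected on 3, 1 and 0 of 3 arrays. The groups did not overlap, and levels ran from hESC down to progenitors. The difference of progenitors from hESC was −0.92 (SE 0.13, adjusted p = 0.000185), or at least 1.27-fold with undetected arrays at their bound, under the 2-fold threshold. The pore-forming subunit of the same channel, KCNMA1, rose in progenitors against hESC (2.03, SE 0.31, adjusted p = 0.000306), and the neuronal accessory subunit KCNMB4 fell (−1.48, adjusted p = 0.000304). KCNMB3 stayed under 2-fold (0.13). Of 7 tested calcium and potassium channel and pump genes, 3 rose and 1 fell there, the other risers being ITPR1 (2.26), a calcium release channel, and ATP2B4 (3.15), a plasma membrane calcium pump. Over all named genes 14.7% rose and 19% fell.

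The atrial light chain genes were lowest in progenitors. MYL4 read 7.33, 7.46 and 6.57 in hESC, 6.40, 6.75 and 6.83 in embryoid bodies, and 5.54, 5.97 and 5.82 in progenitors, where no array detected it. The value of hESC 3 lay within the range of embryoid bodies, and progenitors lay below all. MYL4 fell in progenitors by 1.34 on the log2 scale against hESC (SE 0.23, adjusted p = 0.000777), or at least 2.07-fold with undetected arrays at their bound. Both sizes depend on the background correction, since the change was under 2-fold in the authors' values (−0.54), without that correction (−0.62) and with an offset of 50 (−0.97). Its difference from embryoid bodies, −0.88 (adjusted p = 0.00867), or at least 1.503-fold, was under the threshold, and embryoid bodies differed from hESC by −0.46 (adjusted p = 0.216).

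MYL7 read 7.15, 7.63 and 6.18 in hESC, 5.58, 6.04 and 5.45 in embryoid bodies, and 4.92, 5.38 and 5.10 in progenitors. All hESC arrays detected it, 1 of 3 embryoid body arrays and no progenitor array did, and the groups did not overlap. It fell in progenitors by 1.85 against hESC on the log2 scale (SE 0.33, adjusted p = 0.000843), or at least 1.88-fold with undetected arrays at their bound, and was under 2-fold in the authors' values (−0.72) and without background correction (−0.99). It also fell in embryoid bodies by 1.30 on that scale (SE 0.33, adjusted p = 0.0268), a change that rests partly on values near background. Leaving out array 1 or 2 of hESC, or array 1 or 3 of embryoid bodies, ended the call (adjusted p 0.0767 to 0.0919), and the change was −1.70 (adjusted p = 0.00252) without hESC 3. Progenitors and embryoid bodies differed by −0.56 (adjusted p = 0.172).

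**Figure D3:**
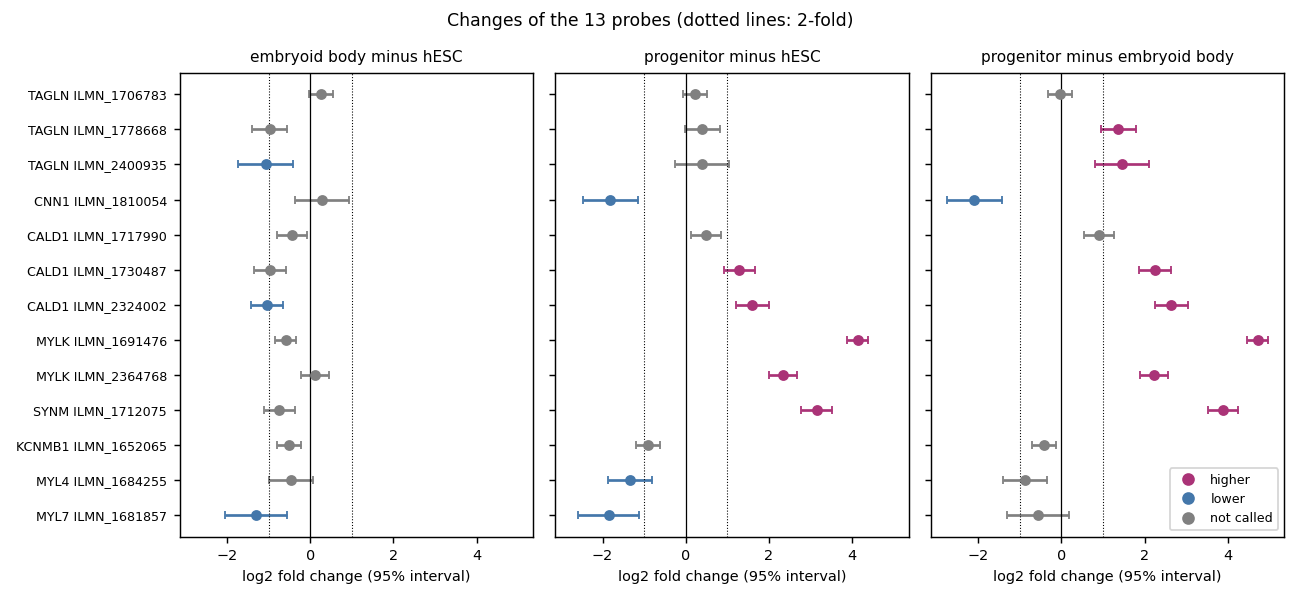
Log2 fold changes of the 13 probes with 95% intervals from limma in the 3 comparisons, in colour where called and grey where not. MYLK, SYNM and 2 CALD1 probes lie right of the 2-fold line in both progenitor panels (2.34 to 4.13 for MYLK against hESC), CNN1 lies left of it in both (−1.82 and −2.10), and the third TAGLN probe lies near 0 throughout.

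Other light chains did not share the fall of MYL4 and MYL7. Of 6 tested, 1 rose and 0 fell in progenitors against hESC by limma (4 at an unadjusted p under 0.05), where 14.7% of all named genes rose and 19% fell. The riser was MYL9, the regulatory light chain of smooth muscle and non-muscle myosin II (1.57, SE 0.12, adjusted p = 3.13e-06). MYL12A (0.61), MYL12B (0.62) and MYL5 (0.65) stayed under 2-fold, as did MYL6 (0.09) and MYL6B (−0.18). Of 8 tested cardiac muscle markers 5 fell in that comparison and 1, the transcription factor gene HAND2, rose (3.94), against the same shares of all named genes. ACTC1, cardiac actin, fell at least 58.5-fold and TNNI3, a cardiac troponin, at least 4.15-fold, both undetected in progenitors. The summed level of the cardiac markers was 5945 to 7599 in hESC, 5373 to 5636 in embryoid bodies and 1078, 2444 and 1106 on progenitors 1 to 3. Of 3 tested skeletal muscle markers, ACTA1 and TNNT1 fell in progenitors, to undetected levels, and MYOG did not pass (0.17). The part of cardiac or skeletal muscle transcripts in the falls of MYL4 and MYL7 was not tested.

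Among 30 tested of 42 other genes of the contractile apparatus, 11 rose and 0 fell in progenitors against hESC by limma (21 higher and 1 lower at an unadjusted p under 0.05, against 32% and 38.7% of all named genes). The median change was 0.62, against −0.07 over all named genes, of which 14.7% rose and 19% fell. The largest rises were those of ACTA2, smooth muscle actin (3.78, SE 0.18, adjusted p = 1.4e-07), CSRP1, a LIM protein of smooth muscle (2.42, adjusted p = 0.000123), ITPR1 and KCNMA1. ACTG2, enteric smooth muscle actin (1.75), TAGLN2, TPM2 (1.59) and TPM4 (1.20), the tropomyosins, MYL9, MYH9 (1.44), a non-muscle myosin heavy chain, and LPP (1.08), an adhesion protein, rose as well. LPP was no call without progenitor 2 (0.99). TAGLN2, MYL9, ITPR1 and KCNMA1 were already counted as risers in the smaller lists above. MYH10, another non-muscle heavy chain, was at −0.80 and under 2-fold, and the myosin phosphatase genes PPP1R12A (0.05) and PPP1CB (0.14), which act against MYLK, did not pass. The smooth muscle myosin heavy chain MYH11 was not analysed here. Against embryoid bodies 12 of 30 rose and 0 fell by limma (22 higher and 1 lower at an unadjusted p under 0.05, against 32.3% and 38.9% of all named genes, median 0.76, against −0.08 over all named genes, of which 15.3% rose and 18.9% fell).

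**Figure D4:**
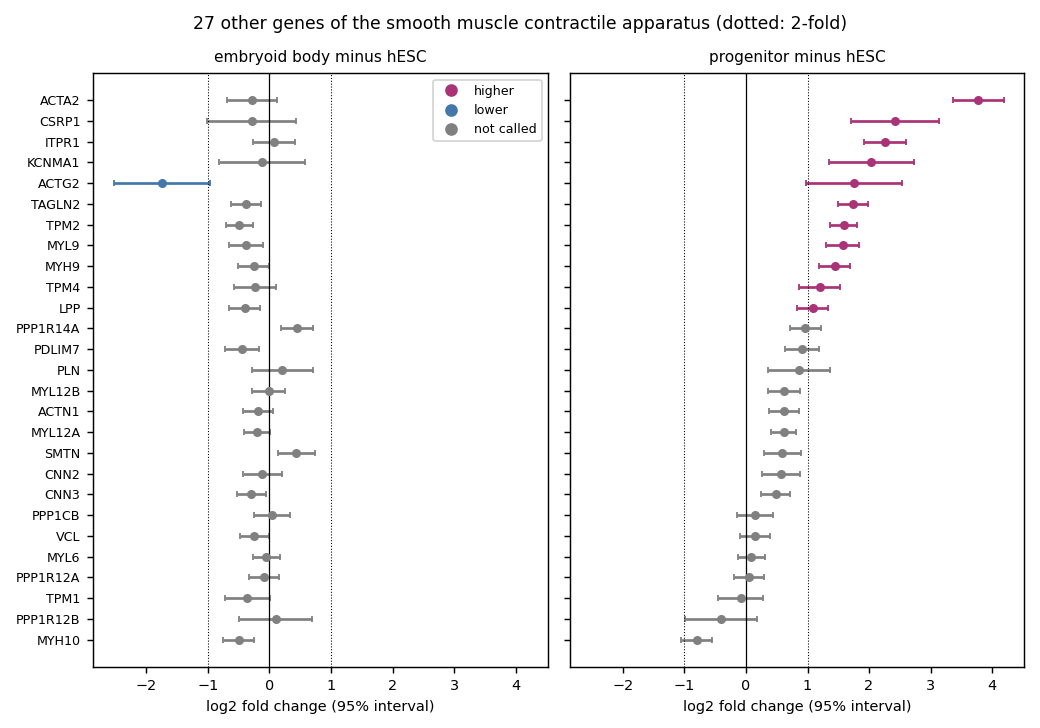
Log2 fold changes with 95% intervals of 27 of the 30 other genes of the contractile apparatus, each by its brightest probe, in embryoid bodies and in progenitors against hESC. ACTG2 alone is called in the left panel (−1.74), and 11 genes are called higher in the right panel, from LPP (1.08) to ACTA2 (3.78).

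In embryoid bodies against hESC 1 of the 30 fell, ACTG2 (−1.74, SE 0.35, adjusted p = 0.0103), where 1.58% of all named genes fell, and the median was −0.24 against −0.01 over all named genes. Without hESC 3 the change of ACTG2 was −1.24 and still a call. The 2 brighter probes of TAGLN and of CALD1, the SYNM probe and the brighter MYLK probe lay at −0.59 to −1.07 in the same comparison. Under median scaling the median of all probes was at −0.22 here, and the brightest TAGLN and CALD1 probes were at −1.23 and −1.27. The 3 probe calls of this comparison (TAGLN, CALD1 and MYL7) fell to 1, MYL7, without hESC 3.

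Of 11 tested transcription regulators of smooth muscle genes, 3 rose and 4 fell in progenitors against hESC, where 14.7% of all named genes rose and 19% fell. FHL2, a LIM coactivator (2.28), ELK1 (1.19) and the mesenchymal homeobox gene PRRX1 (1.37) rose. PRRX1 was near background in hESC (5.91, detected on 2 of 3 arrays) and uneven in progenitors (7.27, SD 0.86). Its change was 1.86 without progenitor 2. HEY2, a Notch effector of vessel walls (at least 28.6-fold), FOXO4 (−1.73), NOTCH3, the Notch receptor of mural cells (−1.60), and KLF4, a repressor of contractile genes (−1.48), fell. SRF, serum response factor itself, was at −0.40 (adjusted p = 0.0308) and its coactivator MRTFA at 0.63 (adjusted p = 0.000239), both under 2-fold, while MRTFA rose against embryoid bodies (1.36, adjusted p = 1.23e-06). Myocardin was not analysed here.

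Fibroblast genes moved with the rising members. Of 10 tested fibroblast markers 8 rose and 1 fell in progenitors against hESC, where 14.7% of all named genes rose and 19% fell. Their summed level was 126940 to 204972 in progenitors, 6921 to 9656 in hESC and 7776 to 7992 in embryoid bodies. The part of a fibroblast programme in the levels of MYLK, SYNM and CALD1, which fibroblasts also express, was not tested. Of the endothelial markers only KDR and TEK were tested, with a summed level of 1601, 3057 and 1666 on progenitors 1 to 3, 1175, 1208 and 2135 on hESC 1 to 3, and 705 to 737 in embryoid bodies. The sum does not stand for both genes. Of the 2, 0 rose and 1 fell in progenitors against hESC, and 1 rose and 1 fell against embryoid bodies.

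The genes whose values over the 9 arrays were most like each member's were found by the root mean square difference after subtracting each gene's own mean. For MYLK these were PLAUR, PARVA and ANGPT1 (differences of 0.16 to 0.17 log2 units), for SYNM BMPR2, P4HA2 and COL4A1 (0.16 to 0.17), and for CALD1 MOV10, ACOT1 and NOTCH2 (0.12 to 0.19). For TAGLN they were BTD, H2BC21 and TRIM5 (0.12 to 0.16) and for CNN1 FGF2, ELAVL2 and SOHLH2 (0.17 to 0.18). For KCNMB1 they were ADAR, TRIM39 and RIMS2 (0.10 to 0.11), for MYL4 POU3F1, ASTN1 and MSI1 (0.14 to 0.16), and for MYL7 BMP2, SALL1 and TNNC1 (0.25 to 0.27). Between members the closest pairs were KCNMB1 with MYL4 (0.40), MYL4 with MYL7 (0.41), TAGLN with CALD1 (0.44) and MYLK with SYNM (0.49). These differences cannot be set against those of the nearest genes, which were picked from 11991 named genes and not from 8 members. All these arrays share the same 3 groups, so a small difference describes a shared pattern over groups and arrays.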

How the data were processed

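For 47323 probes the authors deposited a mean bead intensity, with no normalization and background not subtracted, and a detection p-value set from negative control beads. Their other deposited table holds log2 values of 20127 probes with equal distributions on all arrays, as after quantile normalization by the authors. BeadStudio was used, per the submitters' processing notes; neither its version nor a build is given in the sources used here. Precision is limited by the number of arrays.

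Intensities were processed with neqc of limma 3.58.1 in R 4.3.3 (normexp background from the detection p-values, offset 16, quantiles, log2). Probes detected at p under 0.05 on at least 3 of 9 arrays entered 1 lmFit and eBayes fit over all arrays, two-sided, with Benjamini-Hochberg adjustment over 21683 probes. Symbols were updated by Entrez identifier. A gene of a list, or a member where so stated, is its brightest probe on average (11991 genes). A probe undetected on all arrays of a group has a lower bound, the mean of the bright group against, per array, the higher of the lowest detected value and its own. The labels do not say whether a replicate number pairs arrays across groups, and no pairing was assumed. Deviations of equally numbered arrays correlated at −0.10 to 0.07, which cannot decide it, as most arrays of a group were nearly identical. Named genes are all members, up to 4 of each list by size of change among changed genes whose groups do not overlap, and the 3 nearest genes by pattern, and further list genes were named after their values were seen. Members and lists were chosen with earlier results of these data known. A few list genes are not reported here by name. The fit was tested on simulated data with every array drawn independently. That test therefore does not cover groups of near-identical arrays with 1 array apart.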

Additional observations from a re-analysis of the deposited data

How the results depend on the processing

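Counts of calls moved less in the progenitor comparisons than in embryoid bodies against hESC, while single calls changed in each. In progenitors against hESC, 8 of the 13 probes were called, and 6 to 9 under every alternative run except with no fold minimum (10). Against embryoid bodies 8 were called, 7 to 9 under the alternatives, except 5 with 1 probe per gene, where only 8 probes enter, and 11 with no fold minimum. In embryoid bodies against hESC 3 were called, and 0 in the authors' values, 0 without background correction, 0 with near-identical arrays averaged (5 columns, 2 residual degrees of freedom, 1710 probes at an unadjusted p under 0.05 and the lowest adjusted p at 0.179), 1 with array weights, 1 with 1 probe per gene, 5 under median scaling and 8 with no fold minimum. Leaving out 1 array gave 1 to 4, with 1 without hESC 3 or embryoid body 1, and leaving out both hESC 3 and progenitor 2, an alternative chosen after seeing the data, gave 1. The replicate block changed none of these counts (3, 8 and 8). MYL4 against hESC lost its call in the authors' values (−0.54), without background correction (−0.62) and with an offset of 50 (−0.97), and MYL7 in the first 2 (−0.72 and −0.99), so that near background the size depends on the correction. The second TAGLN probe lost its call against embryoid bodies with arrays averaged (adjusted p = 0.0912), and KCNMB1 against hESC gained one under median scaling (−1.01) and without hESC 1 (−1.02). The uncalled changes that turned sign were CNN1 in embryoid bodies against hESC under median scaling (−0.074), the dimmer MYLK probe there without embryoid body 1 (−0.014, and up to 0.25 without embryoid body 3), and the dimmest TAGLN probe in progenitors against embryoid bodies with array weights (0.041), in the authors' values (0.055), without both arrays (0.033) and on leaving out 1 array (−0.0901 to 0.033, above 0 without progenitor 2). The other contractile genes kept counts of 11 and 12, or 10 to 13 under the alternatives, with 21 and 23 at no fold minimum. In embryoid bodies 1 was called, 0 with arrays averaged and 8 with no fold minimum. Over all probes, 589, 6391 and 6478 were called in embryoid bodies against hESC, progenitors against hESC and progenitors against embryoid bodies. With 1 probe per gene the counts were 371, 4043 and 4099, in the authors' values 194, 3535 and 3658, without background correction 195, 4012 and 4111, and with no fold minimum 3731, 13147 and 13091. The first count was 914 under median scaling (149 higher and 765 lower, against 278 and 311), 349 with an offset of 50, and 0 with arrays averaged. Under median scaling progenitors against hESC had 2524 higher and 4154 lower, against 3049 and 3342. The cause of these shifts was not tested.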
